A study of Bos indicus x Bos taurus with 17 samples.

Results

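The ATP-binding cassette (ABC) family was taken from gene counts of bovine fetal liver and skeletal muscle as every listed gene whose symbol is ABC, a subfamily letter from A to G and a number. This gave 44 entries with 43 symbols among 21048 listed genes: 11 in subfamily A, 9 in B, 10 in C, 5 in D, 1 in E, 3 in F and 5 in G. ABCD4 is listed under 2 gene identifiers on the same strand with 12636 bp in common, and the shorter entry had 0 counts in all 12 libraries, so ABCD4 below is the longer entry. ABCC4 and ABCA8 were not analysed here. The fetuses were Bos indicus x Bos taurus F1 hybrids (Nelore and Holstein breeds) at about day 105 of gestation. Control-AI fetuses 2 and 4 were conceived by artificial insemination, and ART-Normal fetuses 1, 2, 3 and 4 were conceived by assisted reproductive technology. The study describes its ART-Normal group as produced in vitro with a weight like that of controls. ART-Normal 4 is in the labels, which call it healthy, but not among the fetuses the study lists, so its weight class is not given in the sources used here. Both tissues of all 6 fetuses were sequenced, so each tissue had 2 Control-AI and 4 ART-Normal libraries. Messenger RNA was selected with oligo(dT), and the libraries were strand specific.

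ABC proteins bind and hydrolyse ATP. Most use that energy to move lipids, sterols, bile constituents, peptides, drug conjugates or heme precursors across a membrane, while the members of subfamilies E and F have no membrane domain and act on ribosomes. In liver the family is best known for the pumps of the canalicular membrane, which form bile, and for exporters that load cholesterol on lipoproteins. In muscle it is known for the sulfonylurea receptors, which are the regulatory subunits of ATP-sensitive potassium (KATP) channels and move no substrate themselves.

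Levels are given as CPM (counts scaled to a common library total) after TMM normalisation of the 12 libraries, a scale that sets libraries beside each other for 1 gene and not genes beside each other. Total counts were 18454088 to 43339598 in liver and 12433300 to 23578362 in muscle. The tissues carried their labels: all 8 hepatocyte markers were higher in liver and all 8 skeletal muscle markers were higher in muscle. The 8 erythroid markers summed to 25196 CPM in the liver of Control-AI 2, to 6706 to 7436 CPM in the other livers and to 92.9 to 623 CPM in muscle. Fetal liver is a site of blood formation. The libraries of Control-AI 2 stood apart. Its liver had a hepatocyte marker sum of 339525 CPM against 32090 to 58253 CPM in the other livers, and its muscle had 349 CPM against 5.37 to 46.5 CPM in the other muscles. Skeletal muscle markers summed to 32.7 CPM in the liver of Control-AI 2 and to between 6.83 and 9.52 CPM in the other livers. In bulk tissue, fewer cells of a type and less RNA per cell cannot be told apart, and this holds for every difference below.

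The first comparison set liver against muscle, with the conception group as a covariate. ABC genes were unevenly placed between the tissues, and most of those tested were higher in liver. Of the 44 entries, 38 had a mean of at least 1 CPM over the 12 libraries and were tested. Among the 6 not tested, ABCA12, ABCC12 and ABCG4 had more counts in muscle than in liver (99 against 12, 25 against 5 and 207 against 0). The rest of the 6 had at most 3 counts in either tissue. By edgeR's quasi-likelihood test with Benjamini-Hochberg adjustment, 34 of the 38 differed at an adjusted p of 0.05 or lower, against 79.7% of all genes tested. There were 25 members higher in liver, against a background of 39.6% of genes, and 9 higher in muscle, against a background of 40.2%. The median log2 fold change, liver minus muscle, was 1.26 over the 38 members and -0.01 over all 14742 genes. With both libraries of Control-AI 2 left out, 37 members were tested, 25 were higher in liver and 9 were higher in muscle. Of all 14617 genes in that fit, 11827 passed, 5873 of them higher in liver. The 2 Control-AI fetuses alone gave 25 of 37 members past the threshold, against 7634 of 14823 genes. The 4 ART-Normal fetuses alone gave 32 of 37 members, against 11465 of 14620 genes.

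**Figure D1:**
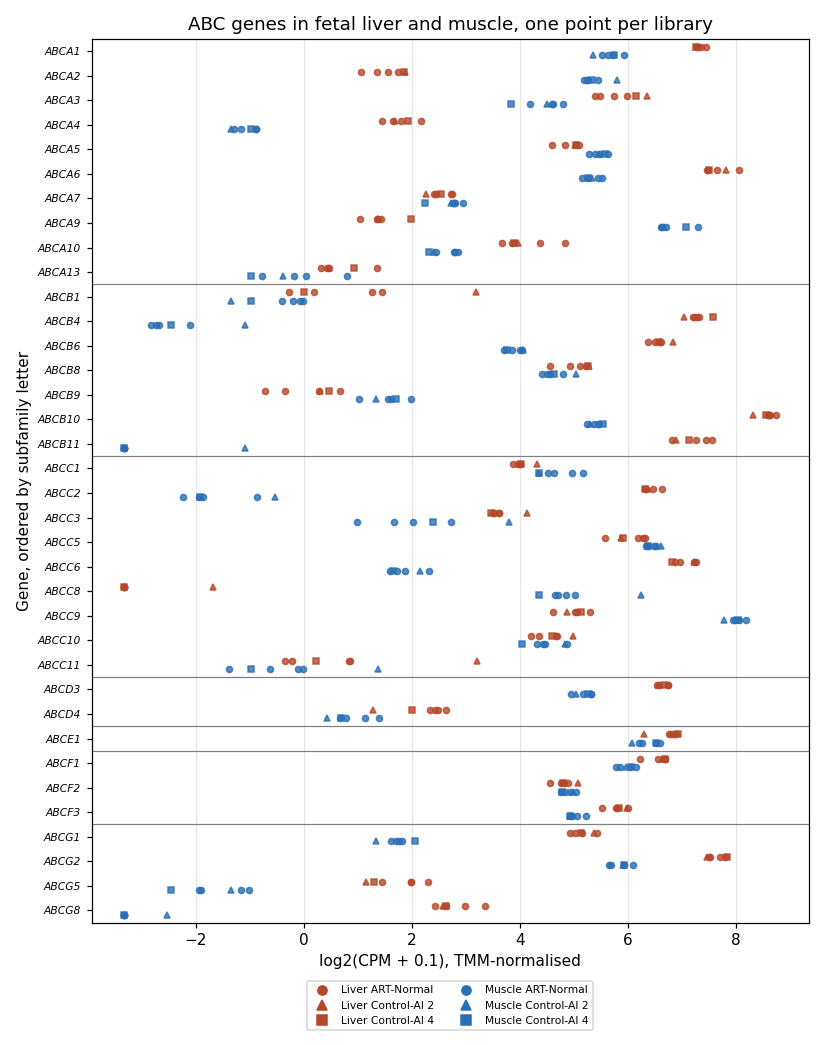
Level of 36 of the tested members, as log2(CPM + 0.1) on the horizontal axis, with 1 point per library and the genes ordered by subfamily letter. Of these, 24 were higher in liver at the adjusted threshold, and ABCC8, ABCA9, ABCA2 and ABCC9 show the widest separation the other way.

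Of the canalicular and drug exporters, 5 of 5 members were higher in liver. ABCB11, the bile salt export pump (chr2:27112288-27212706 on ARS-UCD1.2), was at 119 and 141 CPM in the Control-AI livers and at 189, 175, 113 and 153 CPM in the livers of ART-Normal 1 to 4. In muscle it had 5 counts in all, each of them in Control-AI 2, and 0 counts in the other 5 libraries. The ratio of liver to muscle was 3786, with an exact 95% interval of 1622 to 11661 for counting error, and the fitted log2 fold change of 11.65 depends on the prior count. ABCB4, which moves phosphatidylcholine into bile, was at 132 and 190.0 CPM in the Control-AI livers and at 148, 161, 155 and 150 CPM in the ART-Normal livers. Its muscle levels were 0.04 to 0.37 CPM, from 13 counts in 6 libraries, and the ratio was 1500 with an interval of 877 to 2818. No muscle library came near the lowest liver library for either gene.

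ABCC2, the exporter of bilirubin and glutathione conjugates, was at 83.4 and 79.6 CPM in the Control-AI livers and at 99.6, 80.7, 87.9 and 79.3 CPM in the ART-Normal livers. Its 6 muscle libraries ran from 0.11 to 0.59 CPM, and the log2 fold change was 8.36 (SE 0.24, adjusted p = 1.3e-12 by edgeR's quasi-likelihood test). The highest of these muscle values for ABCB11, ABCB4 and ABCC2 was in Control-AI 2, whose muscle also had the highest hepatocyte marker sum, and the part of that sum in the 3 values was not tested. ABCG2, an exporter of urate, porphyrins and drugs, was less one-sided, with a median of 196 CPM in liver and 60.5 CPM in muscle, with a log2 fold change of 1.77 (SE 0.10). ABCB1, the multidrug exporter P-glycoprotein, was at 8.98 CPM in the liver of Control-AI 2 and at 0.73 to 2.62 CPM in the other livers, against 0.29 to 0.89 CPM in muscle. The log2 fold change of ABCB1 was 1.87 (SE 0.63) over all libraries and 1.07 with both libraries of Control-AI 2 left out, and both values passed the threshold.

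The genes around these pumps were measured beside them. Of 14 genes for bile acid synthesis, uptake and control, 12 were tested, 9 were higher in liver and 3 were higher in muscle. NR1H4, the bile acid receptor that controls ABCB11 in adult liver, had a median of 84.8 CPM in liver and 0.06 CPM in muscle. SLC10A1, which takes bile salts up from blood, had 165 and 0.29 CPM, and CYP8B1, a sterol hydroxylase of bile acid synthesis, had 64.6 and 0 CPM. CYP7A1, the rate-limiting enzyme of the classical bile acid pathway, was not tested, with at most 0.23 CPM in any liver. The 3 genes higher in muscle were CYP27A1, BAAT and SLCO2B1.

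Among the exporters of sterols and phospholipids, 5 of 8 tested members were higher in liver, 2 were higher in muscle and 1 did not pass. ABCG5 and ABCG8 form a single sterol pump as a heterodimer. ABCG8 was at 5.84 and 6.08 CPM in the Control-AI livers and at 5.31, 7.85, 6.09 and 10.2 CPM in the ART-Normal livers, while its 6 muscle libraries held 1 count in all. On the log2 scale the ratio for ABCG8 was 9.80, with an exact 95% interval of 7.32 to 15.11 for counting error, and its fitted log2 fold change of 8.99 depends on the prior count. ABCG5 was at 2.14 and 2.35 CPM in the Control-AI livers and at 3.88, 4.81, 2.62 and 3.85 CPM in the ART-Normal livers. In muscle ABCG5 was at 0.08 to 0.39 CPM, giving a log2 fold change of 3.76 (SE 0.35, adjusted p = 2.3e-07). The liver and muscle values of both genes were fully apart.

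ABCG1, which passes cholesterol to lipoproteins, was at 41.5 and 35.0 CPM in the Control-AI livers and at 32.6, 35.7, 30.5 and 43.2 CPM in the ART-Normal livers. In muscle its values were 2.43, 4.08, 3.31, 2.95, 3.16 and 3.45 CPM in the same order of fetuses, and the log2 fold change was 3.48 (SE 0.14, adjusted p = 3.0e-11). Every liver was far above every muscle. ABCA1, which loads cholesterol on apolipoprotein A-I, had a median of 157 CPM in liver and 51.4 CPM in muscle, a log2 fold change of 1.66 (SE 0.09). ABCA3, a phospholipid transporter best known from lung surfactant, had medians of 58.6 and 23.3 CPM, with a log2 fold change of 1.42 (SE 0.19). ABCG4 was not tested. It had 0 counts in all livers and 207 counts in muscle, at least 88.6-fold higher against a floor of 3 counts over the 6 livers.

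ABCA2, a lysosomal lipid transporter known from the cells that make myelin, went the other way. It was at 55.5 and 40.2 CPM in the Control-AI muscles and at 37.8, 36.6, 43.6 and 38.2 CPM in the ART-Normal muscles, against 3.56, 3.51, 2.86, 2.46, 1.98 and 3.27 CPM in the livers of the same fetuses. The log2 fold change was -3.84 (SE 0.14, adjusted p = 1.1e-11), or 14.4-fold lower in liver, with no overlap. ABCA7, a phospholipid exporter also linked to phagocytosis, did not pass. Its livers were at 4.70, 5.73, 6.64, 5.34, 5.20 and 6.52 CPM and its muscles at 6.56, 4.65, 7.59, 6.79, 6.89 and 6.71 CPM, which overlapped (log2 fold change -0.20, SE 0.16, adjusted p = 0.26). Of the 13 genes listed for sterol transport and control, 11 were higher in liver and 2 did not pass, SREBF2 among them. APOA1, the acceptor of ABCA1, had medians of 1622 and 19.2 CPM, and NR1H3, a sterol receptor that controls ABCA1 and ABCG1, had 24.6 and 8.07 CPM.

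**Figure D2:**
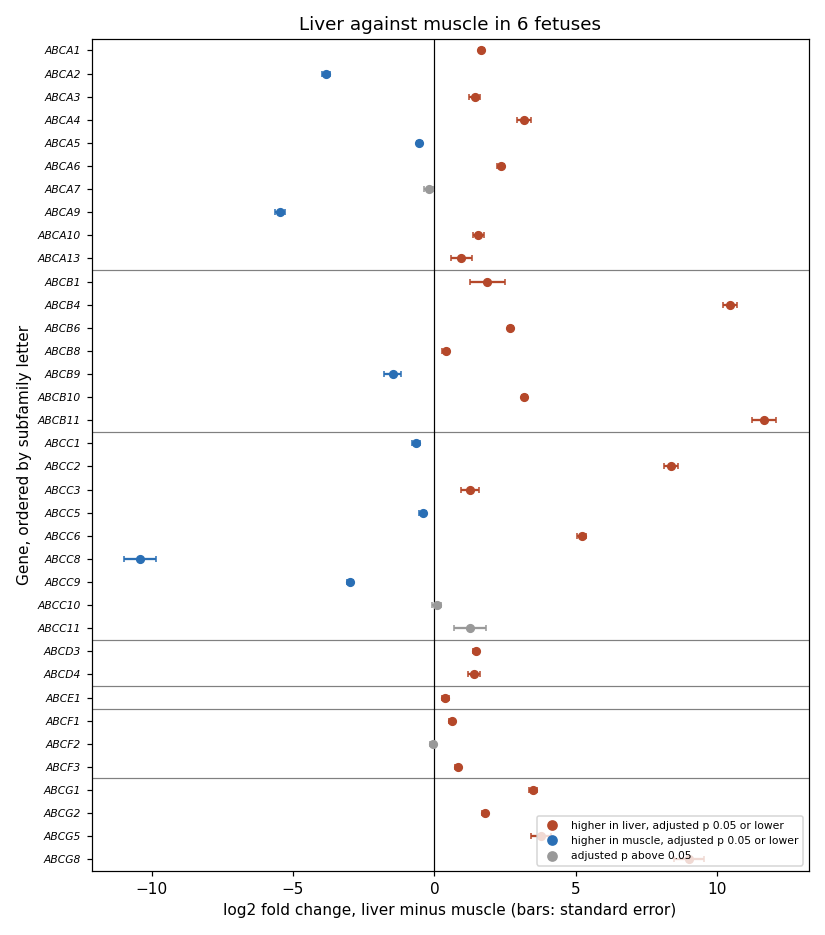
Log2 fold change of liver minus muscle for 36 of the tested members, with horizontal bars for the standard error, ordered by subfamily letter. Red points are the 24 members higher in liver, blue points the 8 higher in muscle and grey points the 4 that did not pass; the fitted values of ABCB11, ABCC8 and ABCG8 rest on at most 5 counts in the lower tissue.

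Both sulfonylurea receptors were higher in muscle. ABCC8 was at 76.1 and 20.4 CPM in the muscles of Control-AI 2 and 4 and at 25.1, 29.0, 25.9 and 32.3 CPM in those of ART-Normal 1 to 4. In liver it had 3 counts, all in Control-AI 2, the liver that also had the highest sum of skeletal muscle markers, and the part of that sum was not tested. The ratio of muscle to liver was 1673, with an exact 95% interval of 572 to 8118, and the fitted log2 fold change of -10.40 depends on the prior count. ABCC9 was at 220.5 and 262 CPM in the Control-AI muscles and at 267, 291, 254 and 248 CPM in the ART-Normal muscles. In the livers of the same fetuses ABCC9 was at 29.4, 35.0, 39.5, 33.2, 24.5 and 32.5 CPM, a log2 fold change of -2.99 (SE 0.12, adjusted p = 2.3e-11). ABCC9 was thus present in all livers, while ABCC8 was at 0 in 5 of 6.

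The pore subunits of the same channels had the same direction. KCNJ11, the usual partner of ABCC8, was at 23.7 to 44.1 CPM in muscle and 0.08 to 0.74 CPM in liver (log2 fold change -6.83, SE 0.37). KCNJ8, the usual partner of ABCC9 in vessels, was at 22.1 to 28.3 CPM in muscle and 4.71 to 7.42 CPM in liver (log2 fold change -1.93, SE 0.12). The 6 endothelial markers, a list that does not hold KCNJ8 or ABCC9, summed to 711 to 782 CPM in muscle and 279 to 324 CPM in liver. The 5 smooth muscle and pericyte markers were split, with 2 higher in liver, 2 higher in muscle and 1 that did not pass. Their sum was 483 to 612 CPM in muscle and 157 to 256 CPM in liver. The part of either list in the differences of the channel subunits was not tested.

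The mitochondrial members ABCB10, ABCB6 and ABCB8 were higher in liver. ABCB10, an inner membrane protein needed for heme synthesis in red cell precursors, was at 320 and 375 CPM in the Control-AI livers and at 428, 398, 394 and 386 CPM in the ART-Normal livers. In the muscles of the same fetuses it was at 39.4, 46.4, 41.3, 44.2, 37.8 and 43.8 CPM, and the log2 fold change was 3.18 (SE 0.09, adjusted p = 1.5e-12). The lowest liver was several times above the highest muscle. ABCB6, a porphyrin transporter, had medians of 95.8 and 15.1 CPM, with a log2 fold change of 2.68 (SE 0.10).

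ABCB8, an inner membrane protein linked to iron and potassium handling, differed less between the tissues than ABCB10 and ABCB6. It was at 38.8, 38.4, 23.4, 30.5, 34.4 and 37.2 CPM in liver and at 32.8, 24.8, 22.7, 21.1, 23.6 and 27.9 CPM in muscle, ranges that overlapped (log2 fold change 0.40, SE 0.12, adjusted p = 0.0078). Its 104 bp overlap with ATG9B on the other strand touched a gene at no more than 6.64 CPM in any library. Of the 10 genes listed for mitochondrial heme and iron-sulfur work, on 11 lines, 10 lines were higher in liver and ISCU did not pass. ALAS2, the erythroid enzyme that starts heme synthesis, had medians of 1238 and 5.79 CPM, and FECH, which closes it, had 679 and 31.0 CPM. Between the tissues, 7 erythroid markers had the direction of ABCB10 and ABCB6, ALAS2 being on both lists. Within liver, Control-AI 2 had the highest erythroid marker sum, 25196 CPM, with the lowest ABCB10, 320 CPM, and the highest ABCB6, 115 CPM. The part of erythroid cells in the tissue differences was not tested.

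The other exporters of organic anions and conjugates were split, with 2 of 6 tested members higher in liver, 2 higher in muscle and 2 that did not pass. ABCC6, whose loss causes calcification of elastic tissue, was at 150.2 and 113 CPM in the Control-AI livers and at 117, 125, 154 and 149.8 CPM in the ART-Normal livers. In the muscles of the same fetuses it was at 4.35, 3.06, 3.23, 3.56, 2.94 and 4.90 CPM, with a log2 fold change of 5.21 (SE 0.16, adjusted p = 2.5e-12). There was no overlap, and the difference was 36.9-fold. ABCC3, which exports conjugates across the basolateral membrane, had medians of 11.8 and 4.54 CPM, with a log2 fold change of 1.26 (SE 0.32), although its muscle of Control-AI 2, at 13.8 CPM, lay above 5 of the 6 livers. Without the muscle of Control-AI 2 the log2 fold change of ABCC3 was 1.57.

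ABCC1, an exporter of glutathione conjugates found in most tissues, was at 19.8, 16.2, 16.0, 14.7, 15.5 and 15.9 CPM in the livers of Control-AI 2 and 4 and ART-Normal 1 to 4. The muscles of the same fetuses were at 20.3, 20.5, 24.8, 23.0, 31.2 and 36.0 CPM, giving a log2 fold change of -0.66 (SE 0.15, adjusted p = 9.4e-04). The lowest muscle lay just above the highest liver, and both belonged to Control-AI 2. In the Control-AI fetuses alone the log2 fold change of ABCC1 was -0.18 with an adjusted p of 0.50 by the same edgeR test. ABCC5, an exporter of cyclic nucleotides, had medians of 66.9 CPM in liver and 86.7 CPM in muscle (log2 fold change -0.41, SE 0.12, adjusted p = 0.0061). In the ART-Normal fetuses alone the log2 fold change of ABCC5 was -0.31 with an adjusted p of 0.063 by edgeR.

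ABCC10, a drug exporter, was at 31.6, 24.2, 18.5, 20.4, 25.5 and 25.7 CPM in liver and at 28.5, 16.3, 22.0, 19.8, 21.5 and 29.2 CPM in muscle, which overlapped almost throughout (log2 fold change 0.08, SE 0.16, adjusted p = 0.67). ABCC11, an exporter of lipophilic anions, was at 9.19 CPM in the liver of Control-AI 2 and at 0.69 to 1.72 CPM in the other livers, against 0.28 to 2.51 CPM in muscle. It did not pass in the fit without a block (log2 fold change 1.26, SE 0.58, adjusted p = 0.059) and passed with the fetus as a block (log2 fold change 1.18, adjusted p = 0.0066). Without the liver of Control-AI 2 its log2 fold change was 0.63. LONP2 shares 3194 bp with ABCC11 on the opposite strand and was at 120 to 144 CPM in every liver, Control-AI 2 included at 139 CPM.

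Among the peroxisomal and lysosomal transporters, ABCD3 and ABCD4 were higher in liver and ABCB9 was higher in muscle. ABCD3, which brings branched-chain and bile acid intermediates into peroxisomes, had medians of 98.4 CPM in liver and 37.1 CPM in muscle, with a log2 fold change of 1.45 (SE 0.08). ABCD4, which serves the exit of cobalamin from lysosomes, had medians of 5.14 and 1.56 CPM, with a log2 fold change of 1.39 (SE 0.22). Its ranges overlapped, with the liver of Control-AI 2 at 2.35 CPM and the muscle of ART-Normal 3 at 2.54 CPM. In the Control-AI fetuses alone the log2 fold change of ABCD4 was 1.17 and did not pass (adjusted p = 0.13 by edgeR).

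ABCB9, a lysosomal peptide transporter, was at 1.14, 1.28, 0.69, 0.51, 1.49 and 1.11 CPM in liver and at 2.43, 3.18, 1.94, 2.84, 2.98 and 3.85 CPM in muscle. The ranges were apart, with a log2 fold change of -1.48 (SE 0.30, adjusted p = 4.7e-04). Of the 10 genes listed for peroxisome import and beta-oxidation, where ABCD3 acts, 9 were higher in liver and PEX3 was higher in muscle. ABCD2 had at most 0.08 CPM and was not tested, over a listed span of only 2816 bp. TAP1 and TAP2, the peptide transporters of antigen presentation, and CFTR, a chloride channel, are ABC proteins named outside the symbol pattern, and all 3 were higher in liver, with log2 fold changes of 2.54, 0.66 and 5.69. The 6 genes listed for peptide loading were all higher in liver as well.

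The soluble proteins of translation differed least. ABCE1, which splits ribosomes for reuse, was at 78.9, 122, 119, 115, 111 and 108 CPM in liver and at 67.6, 91.6, 91.7, 96.8, 74.1 and 76.6 CPM in muscle. In each fetus its liver was above its own muscle, although the liver of Control-AI 2 fell within the muscle range (log2 fold change 0.39, SE 0.11, adjusted p = 0.0070). ABCF2 was at 33.6, 27.9, 27.0, 28.2, 23.5 and 29.5 CPM in liver and at 31.4, 27.3, 26.9, 28.4, 30.5 and 32.7 CPM in muscle, and these overlapped (log2 fold change -0.07, SE 0.09, adjusted p = 0.51). ABCF1, which takes part in translation initiation, and ABCF3, which binds polysomes, were higher in liver with log2 fold changes of 0.60 (SE 0.09) and 0.82 (SE 0.09). With library size alone in place of TMM, which moved the median of all genes from -0.01 to -0.14, 3 members no longer passed: ABCE1 (log2 fold change 0.27), ABCB8 (0.28) and ABCA13 (0.84 against 0.95 with TMM). Of 9 genes listed for ribosome rescue and recycling, 8 were tested, 5 were higher in liver and 3 did not pass, while PELO was listed at 0 in all libraries.

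Read by subfamily letter, liver led in most letters. Subfamily G had 4 of 4 tested members higher in liver, with a median log2 fold change of 3.62, while ABCG4, not tested, had counts in muscle alone. Subfamily B had 7 of 8, with a median of 2.28 and ABCB9 as the exception. Subfamily A had 6 of 10 higher in liver and 3 higher in muscle, with a median of 1.18. Subfamily C was the most divided, with 3 of 9 higher in liver, 4 higher in muscle, 2 that did not pass, a median of 0.08, and a range from -10.40 to 8.36. The summed level of the B members was 805 to 961 CPM in liver and 123 to 135 CPM in muscle, while that of the C members was 336 to 400.0 CPM in liver and 411 to 465 CPM in muscle. These sums add genes of unlike length, so they set libraries beside each other within a letter and not letters beside each other.

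Several members lie next to each other, and 7 pairs had no other listed gene between them. In 3 of the 7 pairs the neighbours had log2 fold changes of opposite sign. The pair of ABCC12 and ABCC11 could not be judged, since ABCC12 was not tested. On chromosome 19, ABCA5, ABCA10, ABCA6 and ABCA9 follow one another on the plus strand from 61281139 to 61544575, with gaps of 10929, 3817 and 4597 bp. All are of a subfamily of lipid transporters. ABCA6 was at 226 and 180 CPM in the Control-AI livers and at 267, 200, 180 and 176 CPM in the ART-Normal livers, against 35.3 to 46.1 CPM in muscle (log2 fold change 2.34, SE 0.12). ABCA9, its neighbour, was at 102 and 134 CPM in the Control-AI muscles and at 158, 99.1, 98.0 and 105 CPM in the ART-Normal muscles.

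In liver ABCA9 was at 2.49, 3.85, 2.49, 1.97, 2.46 and 2.60 CPM in the same order, so the log2 fold change was -5.47 (SE 0.18, adjusted p = 5.0e-12), or 44.3-fold lower in liver. ABCA10, before ABCA6, was at 15.5, 14.7, 28.4, 20.7, 14.3 and 12.6 CPM in liver and at 5.24, 4.90, 6.82, 5.34, 7.11 and 6.91 CPM in muscle, with no overlap (log2 fold change 1.55, SE 0.19). ABCA5, a lysosomal member at the start of the row, was at 32.3, 32.7, 34.3, 32.8, 28.7 and 24.2 CPM in liver and at 44.4, 47.8, 49.8, 39.0, 41.8 and 44.5 CPM in muscle. Its ranges did not overlap, with a log2 fold change of -0.53 (SE 0.10, adjusted p = 1.8e-04). The order along the chromosome was thus higher in muscle, higher in liver, higher in liver and higher in muscle. The 5 connective tissue markers, which summed to 543 to 1152 CPM in liver and 20705 to 26679 CPM in muscle, moved with ABCA9, and their part in its difference was not tested.

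**Figure D3:**
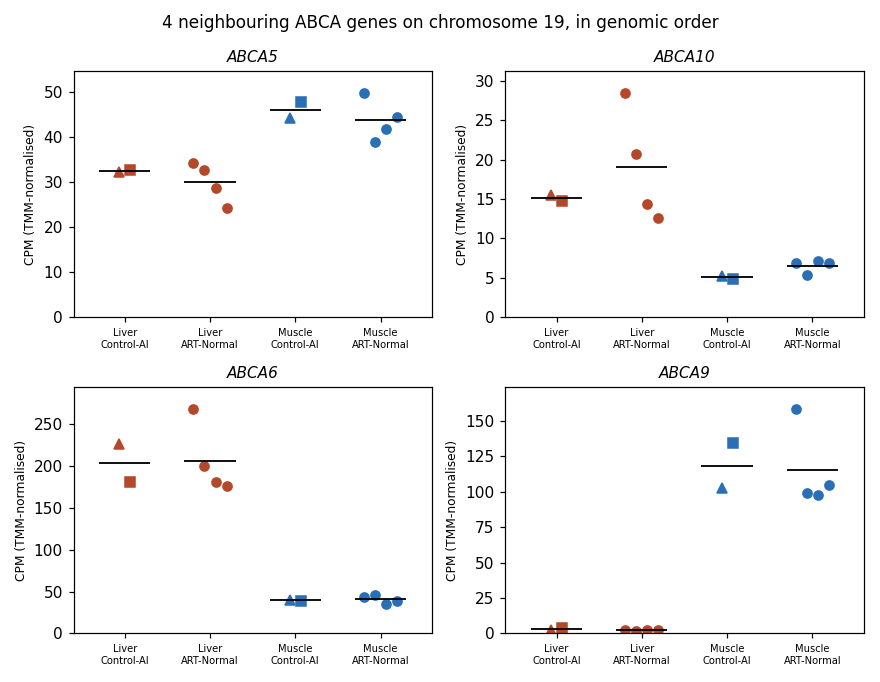
CPM of ABCA5, ABCA10, ABCA6 and ABCA9 by tissue and conception group, 1 point per library, with a line at the group mean, triangles for Control-AI 2 and squares for Control-AI 4. ABCA10 and ABCA6 are higher in all livers than in any muscle, and ABCA5 and ABCA9 are higher in all muscles than in any liver.

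The other neighbours of opposite sign were ABCC1 and ABCC6 on chromosome 25, which face each other from opposite strands with a gap of 5003 bp and had log2 fold changes of -0.66 and 5.21. ABCG5 and ABCG8 on chromosome 11 start 14 bp apart on opposite strands, and both were higher in liver. ABCB1 and ABCB4 on chromosome 4 lie on the same strand with a gap of 24504 bp and were both higher in liver, by log2 fold changes of 1.87 and 10.45. Counting ran over whole gene spans, introns included, so reads that run past the end of 1 gene could be counted in a neighbour on the same strand.

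The second comparison asked whether conception by assisted reproduction went with a different level of ABC genes in the fetuses of the ART-Normal group. No member passed in either tissue. In liver, 29 members reached 5 CPM in every library of at least 1 conception group and were tested, and 0 passed an adjusted p of 0.05 by edgeR's quasi-likelihood test, against 0% of the 11304 genes tested. The likelihood ratio test and DESeq2 also called 0 of these members, and 2 members had an unadjusted p under 0.05. In muscle, 25 members were tested and 0 passed, against 0.00855% of the 11695 genes tested, and again 2 had an unadjusted p under 0.05. With 4 fetuses against 2, an exact permutation test over the 15 splits could not reach p = 0.05 for a single gene, the smallest value being 0.067.

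The differences were small for most members. In liver the 29 log2 fold changes, ART-Normal minus Control-AI, ran from -0.60 to 0.78, with 21 within 0.25 of 0 and standard errors of 0.12 to 0.31. In muscle the 25 ran from -1.30 to 0.48, with 17 within 0.25 of 0 and standard errors of 0.13 to 0.46. The median was -0.0050 over the liver members and 0.0075 over all genes tested in liver, and it was -0.0043 and 0.00069 in muscle. The groups did not overlap for 6 of 29 members in liver, against 18.5% of genes, and for 3 of 25 members in muscle, against 15.5% of genes. These shares were near the background, to which the same filter applied. ABCD4 in liver and ABCA7 in muscle were among these members and met the filter through the ART-Normal group alone.

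**Figure D4:**
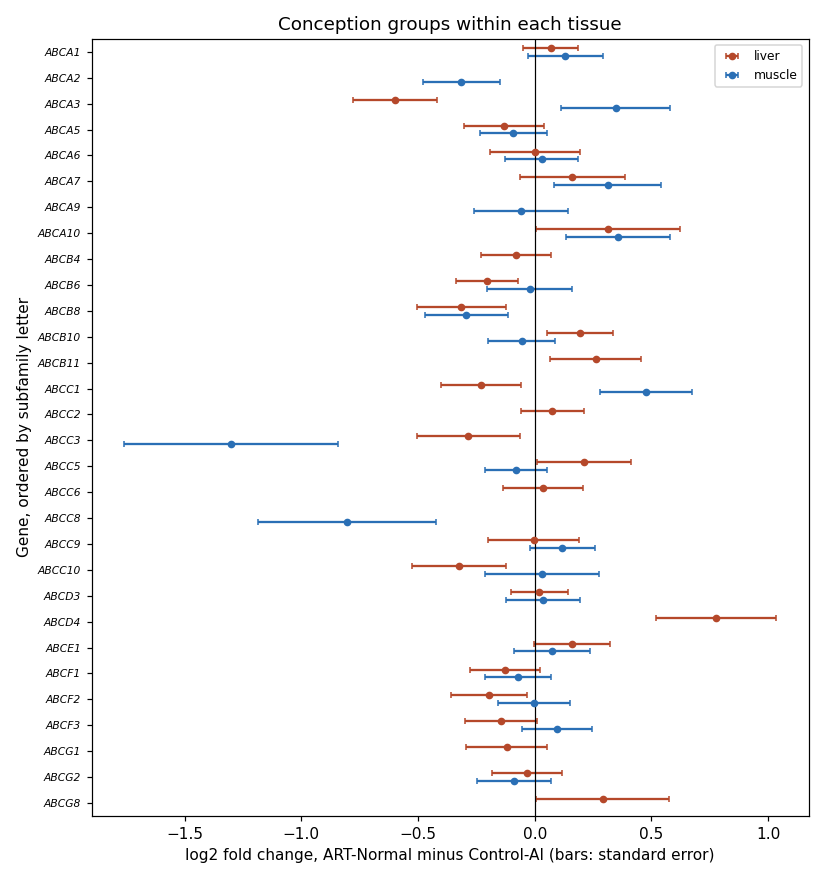
Log2 fold change of ART-Normal minus Control-AI in liver (red, 27 members) and muscle (blue, 23 members), with horizontal bars for the standard error. No point passed the adjusted threshold, and ABCC3 and ABCC8 in muscle lie farthest to the left.

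ABCA3 had the smallest p in liver. It was at 81.6 and 71.2 CPM in the livers of Control-AI 2 and 4 and at 41.9, 63.5, 44.7 and 53.8 CPM in those of ART-Normal 1 to 4. All 4 ART-Normal livers were below both controls, and the log2 fold change was -0.60 (SE 0.18, adjusted p = 0.50 by edgeR). Without the liver of Control-AI 2 it was -0.47. In muscle the groups overlapped, with a log2 fold change of 0.35 (SE 0.23), and the interaction of tissue and conception for ABCA3 was -0.95 with an adjusted p of 0.78 by edgeR.

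ABCD4 was at 2.35 and 3.89 CPM in the Control-AI livers and at 5.54, 6.10, 5.32 and 4.96 CPM in the ART-Normal livers. All 4 ART-Normal livers were above both controls, with a log2 fold change of 0.78 (SE 0.26, adjusted p = 0.53), which was 0.50 without the liver of Control-AI 2. ABCD4 met the 5 CPM filter through the ART-Normal livers alone, so its entry into the test favoured this direction. ABCD4 was not tested in muscle, where it was at 1.25 to 2.54 CPM. The next members by p in liver were ABCB8 (log2 fold change -0.31, SE 0.19, adjusted p = 0.61), ABCC10 (-0.32, SE 0.20, adjusted p = 0.61) and ABCB6 (-0.21, SE 0.13, adjusted p = 0.62). ABCB6 was at 115 and 95.3 CPM in the Control-AI livers and at 83.1, 91.1, 96.4 and 97.6 CPM in the ART-Normal livers, which overlapped.

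In muscle, the 2 members of lowest p were exporters of conjugates. ABCC3 was at 13.8 and 5.14 CPM in the muscles of Control-AI 2 and 4 and at 3.07, 1.89, 3.95 and 6.51 CPM in those of ART-Normal 1 to 4. The muscle of Control-AI 4 lay within the ART-Normal range, so the difference rested on Control-AI 2, with a log2 fold change of -1.30 (SE 0.46, adjusted p = 0.43) that was -0.43 without it. ABCC3 met the 5 CPM filter through the Control-AI muscles alone, so its entry into the test favoured a lower ART-Normal level. ABCC1 was at 20.3 and 20.5 CPM in the Control-AI muscles and at 24.8, 23.0, 31.2 and 36.0 CPM in the ART-Normal muscles. All 4 ART-Normal muscles were above both controls, with a log2 fold change of 0.48 (SE 0.20, adjusted p = 0.50), which was again 0.48 without Control-AI 2. In liver the 4 ART-Normal values of ABCC1 were below both controls, with a log2 fold change of -0.23 (SE 0.17), which was -0.06 without Control-AI 2. The interaction for ABCC1 was -0.71 with an adjusted p of 0.81 by edgeR.

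The 2 controls lay on either side of the ART-Normal fetuses for ABCC8. Its muscle of Control-AI 2, at 76.1 CPM, was above all others and that of Control-AI 4, at 20.4 CPM, was below all others. The log2 fold change was -0.80 (SE 0.38, adjusted p = 0.57) with both controls, 0.45 without Control-AI 2 and -1.47 without Control-AI 4. ABCA2 (log2 fold change -0.31, SE 0.17, adjusted p = 0.62) and ABCB8 (-0.29, SE 0.18, adjusted p = 0.67) followed, and both had their highest muscle value in Control-AI 2. Without that library their values were -0.05 and -0.07.

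Control-AI 2 set other values too. With Control-AI 4 left out, Control-AI 2 was the only control and was assumed to vary like the ART-Normal libraries. The log2 fold changes were then -2.49 for ABCB1 and -2.90 for ABCC11 in liver, and -1.47 for ABCC8 and -1.86 for ABCC3 in muscle. With 1 control these values have no measured spread among controls. ABCB1, ABCC11 and ABCC3 met the filter in those fits through Control-AI 2 alone. With Control-AI 4 as the only control, ABCB1 and ABCC11 were below the filter, as they were with both controls. Control-AI 2 was the highest or the lowest of 6 livers for 14 of the 29 members tested there, against 52.1% of all genes tested, and of 6 muscles for 11 of 25 members, against 51.0%. The liver of ART-Normal 1 was at an end for 18 of 29 members, against 53.5% of genes.

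**Figure D5:**
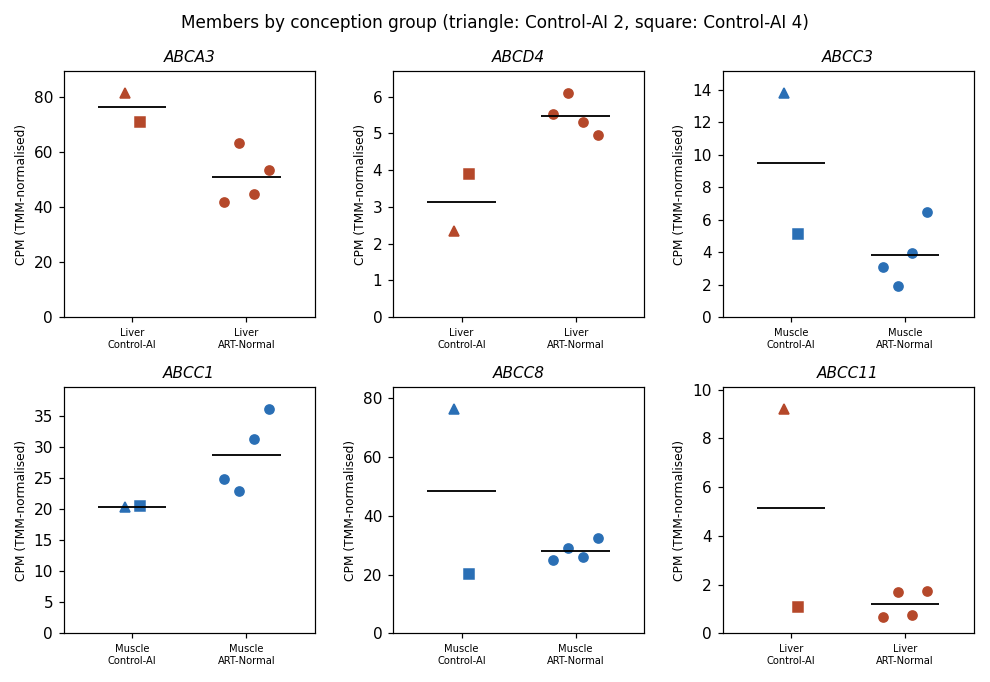
CPM of the members with the lowest p in the conception comparisons (ABCA3 and ABCD4 in liver, ABCC3, ABCC1 and ABCC8 in muscle) and of ABCC11 in liver, by conception group, 1 point per library, with a line at the group mean. The triangle of Control-AI 2 lies far above every other point for ABCC3, ABCC8 and ABCC11, while ABCA3, ABCD4 and ABCC1 have groups that do not overlap. ABCD4 in liver and ABCC3 in muscle met the filter only through the group where they were higher.

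Whether the conception difference was unlike in the 2 tissues was tested as an interaction over the 12 libraries. Of 38 members, 0 passed by edgeR, against 0% of 14742 genes, with 4 members at an unadjusted p under 0.05 and 0 members called by DESeq2 or the likelihood ratio test. Among the ART-Normal fetuses alone, members varied about as much as other genes. The coefficient of variation over the 4 livers had a median of 13.5% over 29 members and 12.7% over all genes tested, and over the 4 muscles it had a median of 11.96% over 25 members and 11.6% over all genes. ABCB4 was the steadiest member in liver at 3.71% and ABCA10 the most variable at 37.7%, while in muscle ABCA7 was steadiest at 5.79% and ABCC3 most variable at 50.8%.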

How the data were processed

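Liver and skeletal muscle RNA-seq of 6 bovine fetuses was used. For both tissues the authors deposited counts of reads per gene without scaling, and the submitters' processing notes name HISAT2 2.1.0, featureCounts, edgeR 3.24.3 and the ARS-UCD1.2 build, while strand handling is not given in the sources used here. The counts ran over whole gene spans, introns included. Of the columns, 14 were not matched to samples and were not used. The deposited comparison tables (log2 fold change, log2 CPM, likelihood ratio, p, FDR) were not used, nor were the kidney samples.

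From the counts, edgeR 4.0.16 in R 4.3.3 gave TMM-normalised CPM and two-sided quasi-likelihood tests over all genes with Benjamini-Hochberg adjustment at 0.05, in analyses checked on simulated data. Conception comparisons used genes that reached 5 CPM in every library of at least 1 conception group, and tissue comparisons a mean of at least 1 CPM. Both filters used CPM before TMM. Standard errors were derived from the fold change and its F statistic. Counts of 3 were the floor for genes at 0. Chromosome names were assigned from the sequence identifiers, and matched RefSeq for the 41 members found there by symbol. Liver and muscle of 1 fetus are the same animal, which gives the pairing; the departures of its 2 libraries from their group means had a correlation over genes of 0.49 in the controls, where 2 samples make both values equal, and 0.20, 0.079, 0.11 and 0.26 in ART-Normal 1 to 4.

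Values in every library were given for the 8 tested members with the largest positive and the 8 with the largest negative log2 fold change between tissues past the threshold, the 5 with the smallest absolute change, the 5 with the smallest p in each conception comparison, and those with an outlying ART-Normal value. A few members and listed genes that this rule or the lists cover are counted in the totals but not reported here by name or drawn. Members, lists and tests were chosen with earlier results of these data known. Alternatives were RLE, upper quartile and library size scaling, the likelihood ratio test, DESeq2 1.42.0, other filters, ART-Normal 1 to 3 only, both tissues in one fit, replicate blocks, each conception group alone, and leaving out each library. Pandas 2.3.3 and Matplotlib 3.10.9 were used for tables and plots.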

Additional observations from a re-analysis of the deposited data

Results flagged for a closer look

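Among the 54 groups of 4 ART-Normal libraries looked at, 2 held a library far from the other 3 by Dixon's test, and chance gives about 1 in 20. ABCA9 was at 158 CPM in the muscle of ART-Normal 1 and at 98.0 to 105 CPM in the other 3. ABCA10, its close neighbour on chromosome 19, was at 5.34 CPM in the muscle of ART-Normal 2 and at 6.82 to 7.11 CPM in the other 3.

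For ABCC1, all 4 ART-Normal livers were below both control livers and all 4 ART-Normal muscles were above both control muscles. The liver side rested on Control-AI 2, with a log2 fold change of -0.23 that was -0.06 without that liver. In muscle it was 0.48 with and without Control-AI 2. The test of a difference between the tissues, an interaction of -0.71 on the log2 scale, did not pass (adjusted p = 0.81 by edgeR).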

How the results depend on the processing

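In the comparison of liver and muscle, 866 of the repeated values across the 38 tested members kept direction and side of the threshold. Another 18 values of 10 members no longer passed, and 5 values of ABCC11 newly passed. The log2 fold change of ABCC10 reversed to -0.032 in the ART-Normal fetuses only and to -0.061 with library size alone, and ran from -0.044 (without the muscle of Control-AI 4) to 0.17 when 1 library was left out. That of ABCF2 reversed to 0.068 in the Control-AI fetuses only. The Control-AI fetuses alone gave 7634 genes of any kind between tissues against 11756 in all libraries.

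In the conception comparisons, members called ranged from 0 to 2 in each tissue when single libraries were left out, and were 0 under every other alternative. Over all genes, liver calls were 0, against 6 with the replicate block on replicate number, 6 with library size alone, 2 with ART-Normal 1 to 3 only, 2 with both tissues in one fit, 56 by DESeq2, 89 by the likelihood ratio test and 0 to 830 when 1 library was left out. In muscle 1 gene was called, against 90 with the replicate block, 0 with ART-Normal 1 to 3 only, 106 by DESeq2, 120 by the likelihood ratio test and 0 to 1327 when 1 library was left out; the upper ends, 830 and 1327, were without Control-AI 4. ABCB6 in liver reversed to 0.019 with library size alone. ABCC8 in muscle ran from -1.47 to 0.45 when 1 library was left out, and reversed without Control-AI 2. The interaction called 0 genes, against 32 by DESeq2, 80 by the likelihood ratio test and 0 to 111 when 1 library was left out. The cause of these changes was not tested. A replicate number shared by the conception groups labels different fetuses, so the block on replicate number in the conception comparisons matches no real pairs. The fetus as a block changed no call of a member other than ABCC11. With 2 controls, differences of the size of the standard errors were not detectable.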
